A study of Mus musculus with 40 samples.

Results

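p53, encoded by *Trp53*, and 9 of its best known target and feedback genes were followed across mouse embryonic stem (mES) cells and epiblast-like cells (EpiLCs) that lack proteins of the nuclear envelope. The 10 genes were chosen by name, as textbook members of the p53 pathway: *Trp53*, *Mdm2*, *Cdkn1a*, *Ccng1*, *Bbc3*, *Bax*, *Pmaip1*, *Sesn2*, *Trp53inp1* and *Phlda3*. The choice was made with earlier results of these data known, so their counts beside those of all tested genes are description. They are 10 of the 56748 genes in the deposited count table, 23399 of which had enough counts to be tested, and all 10 had counts in every library and were tested. p53 is a transcription factor held at a low level by the ubiquitin ligase MDM2, which is itself a p53 target, so that the pair forms a negative feedback loop. After DNA damage or other stress, p53 protein is stabilized and activates genes for cell cycle arrest, such as *Cdkn1a*, for cell death through the mitochondria, such as *Bbc3*, *Bax* and *Pmaip1*, and for metabolic and antioxidant responses, such as *Sesn2*. Pluripotent cells carry much *Trp53* transcript, and p53 activity is set largely after transcription, so the transcript level of *Trp53* and those of its targets are separate measurements.

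The data were 40 total RNA-seq libraries in 8 groups, formed by 4 genotypes at 2 stages. The wild type (WT) had 8 libraries per stage and each mutant 4. LBRKO cells carried frameshift mutations of *Lbr*, which encodes the lamin B receptor of the inner nuclear membrane. TKO cells lacked *Lmna*, *Lmnb1* and *Lmnb2*, which together encode all nuclear lamins. QKO cells carried an *Lbr* mutation on top of the TKO deletions. mES cells were grown without serum or feeders in medium that holds them in naive pluripotency (inhibitors of GSK3 and MEK plus LIF) and harvested at 48 h. EpiLCs were harvested after 48 h in 20 ng/mL FGF and 12 ng/mL Activin A, which takes them toward primed pluripotency. The TKO and WT lines came from littermate embryos. All QKO libraries come from a single clone with a frameshift deletion on one *Lbr* allele and an in-frame deletion on the other. The labels do not say which of several LBRKO clones each library represents. Nothing in the labels says that libraries of a group are separate derivations, so p-values measure the spread between cultures of the same lines. The TKO line has an extra chromosome 8 and part of the WT cells carry extra copies of chromosomes 6 and 8 together. Part of the cells of both lines had also lost the Y chromosome. None of the 10 genes lies on these chromosomes. Against WT, the median log2 fold change of chromosome 6 genes was 0.38 in LBRKO mES cells and 0.37 in LBRKO EpiLCs. It was −0.16 in TKO mES cells, −0.15 in TKO EpiLCs, −0.09 in QKO mES cells and −0.08 in QKO EpiLCs. For chromosome 8 genes the medians were −0.01 in TKO mES cells and −0.01 in TKO EpiLCs. They were 0.09 in LBRKO mES cells, 0.08 in LBRKO EpiLCs, 0.07 in QKO mES cells and 0.04 in QKO EpiLCs. The part of these differences in the results was not tested.

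Gene counts per library, in units of 10 to the power 6, ran from 22.59 to 48.86. They fell into separate depth classes that cross the genotypes: WT replicates 5 to 8 and all LBRKO libraries held 39.43 to 48.86, and WT replicates 1 to 4 and all TKO and QKO libraries 22.59 to 33.57. The labels name no batch, so the values against each set of 4 WT libraries are given where they differ. The *Lmnb1* and *Lmnb2* transcripts followed the labels, with *Lmnb1* at 481 to 546 CPM (counts divided by the scaled library total in the same units) in WT mES cells and 8.26 to 8.82 CPM in TKO mES cells. In EpiLCs *Lmnb1* was −9.26 in TKO and −8.14 in QKO on the log2 scale against WT, and *Lmnb2* −5.21 and −6.02. *Lmna* fell by less, with −1.86 in TKO mES cells, −1.60 in QKO mES cells, −0.55 in TKO EpiLCs and −0.43 in QKO EpiLCs, where WT itself held a mean of 11.3 CPM. *Lmnb1* was 1.12 higher on the log2 scale in QKO than in TKO EpiLCs, at means of 1.83 and 0.84 CPM. *Lbr* transcript was reduced and not absent, with a log2 fold change of −0.83 in LBRKO mES cells, −0.49 in LBRKO EpiLCs and −0.63 in QKO EpiLCs against WT. The stages matched their markers: 8 naive genes summed to 3900 to 5640 CPM in mES libraries and 121 to 308 CPM in EpiLC libraries, and 6 primed genes to 174 to 268 CPM and 2900 to 4730 CPM. Among markers of other cells, 7 primitive endoderm genes summed to at most 22.1 CPM, 6 trophectoderm genes to at most 90.4 CPM (LBRKO mES cells, against 36.9 to 51.2 CPM in WT mES cells) and the 4 measured of 6 fibroblast genes to at most 14 CPM. In QKO EpiLCs these 3 sums were 10.5 to 15.2, 39.5 to 43.1 and 6.81 to 7.79 CPM, each no higher than the highest WT EpiLC library, while the primed sum was lower (2900 to 3040 against 3920 to 4730 CPM). A sum follows its most abundant genes and can hide single genes that move. The paper reports abnormal expression in QKO EpiLCs of *Gata6* and *Pdgfra*, which are in the endoderm sum, and of *Eomes*, which is in the trophectoderm sum. In LBRKO EpiLCs the naive sum was above WT (207 to 308 against 121 to 187 CPM). The part of these marker differences in the results was not tested. In bulk libraries, fewer cells of a type and less RNA per cell cannot be told apart.

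Transcript levels of the 10 genes differed most from WT in QKO EpiLCs. p53 protein and its activity were not measured. There *Mdm2*, *Cdkn1a*, *Ccng1* and *Trp53inp1* were each more than 2-fold higher than in WT EpiLCs, *Phlda3*, *Trp53* and *Pmaip1* rose by less, *Sesn2* fell, and the cell death genes *Bbc3* and *Bax* did not pass the test. Thus 7 of the 10 genes rose, where 24.3% of all tested genes rose in the same comparison, and 4 rose more than 2-fold, where 13% did. 1 fell, where 30.5% of tested genes fell, so that 8 of 10 changed in either direction, where 54.8% of all did. The median log2 fold change of the 10 genes was 0.64, against −0.01 over all tested genes. Against WT replicates 1 to 4 alone, the set of like depth, 8 rose and 1 fell (median 0.82), and against replicates 5 to 8 alone 7 rose and 2 fell (median 0.57). The shares of tested genes that rose or fell, here and below, were counted in the main fit of all 40 libraries and not in refits. All 4 QKO EpiLC libraries lay above all 8 WT EpiLC libraries for 7 of the genes, a separation seen for 15.7% of tested genes, and below all of them for *Sesn2*, as for 21.8%. The same cells before differentiation looked different: in QKO mES cells *Trp53inp1* was higher than in WT, and *Cdkn1a*, *Bbc3*, *Bax* and *Sesn2* were lower.

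**Figure D1:**
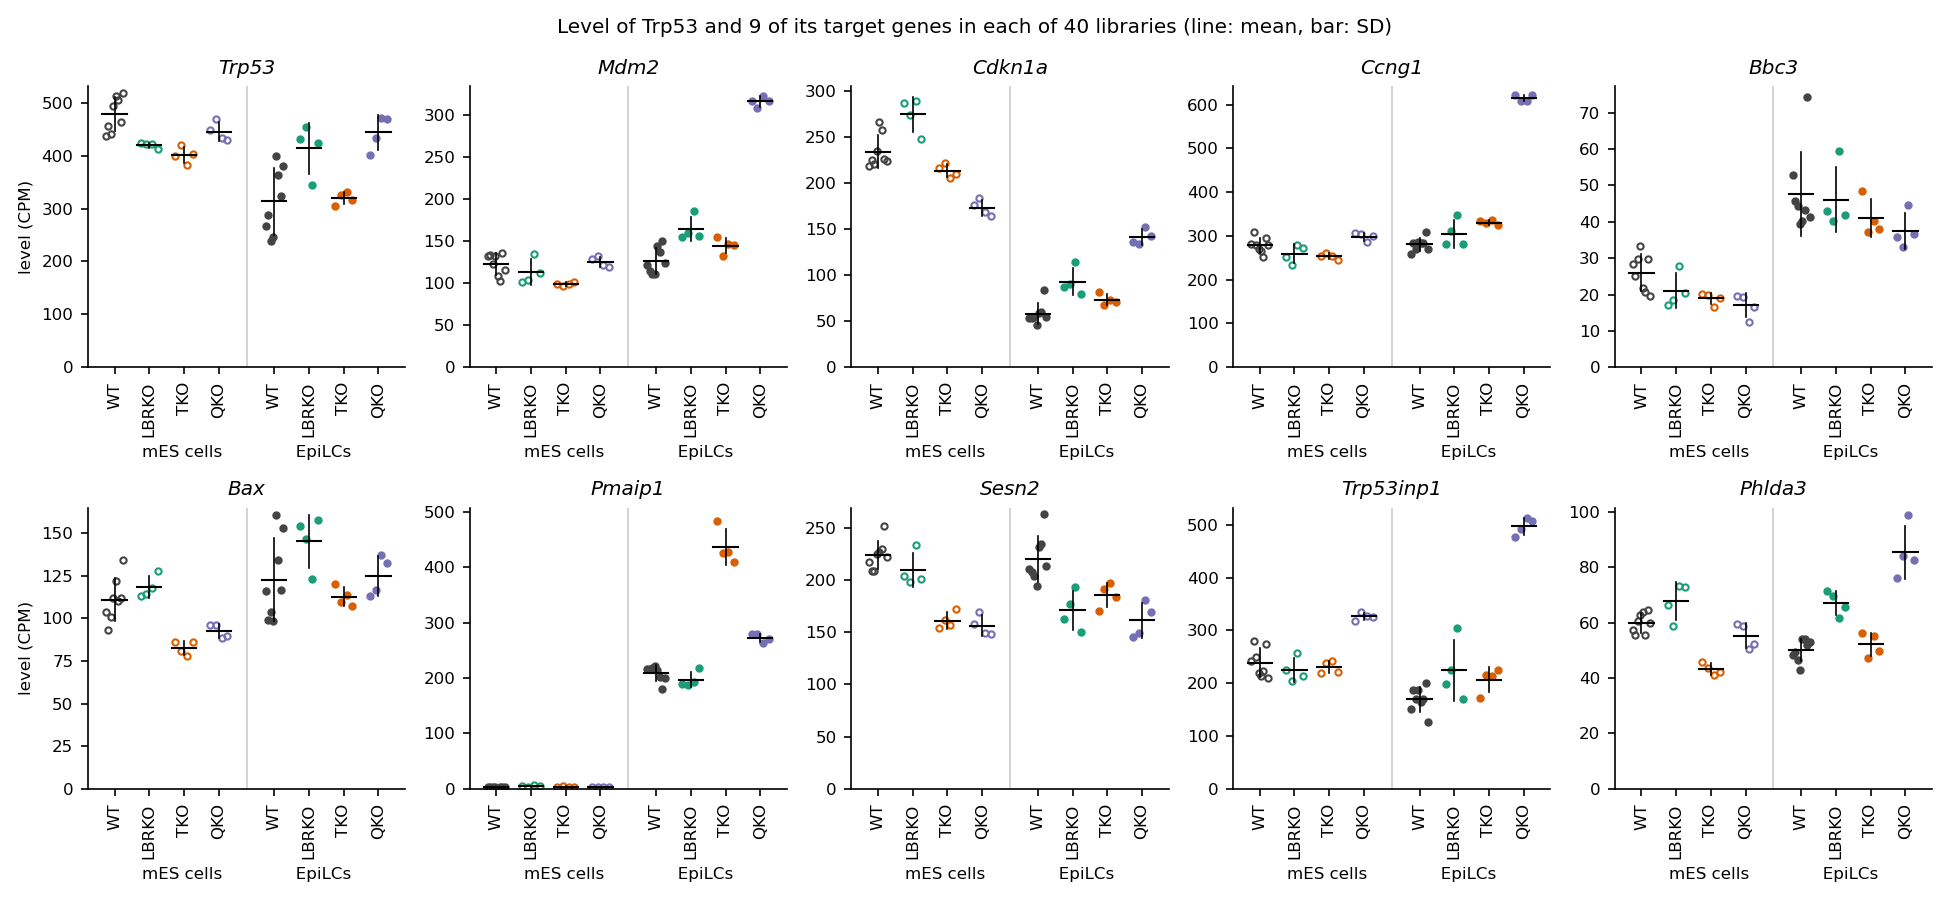
Level of each of the 10 genes (CPM, each panel on its own axis from 0) in every library, in 8 groups of genotype and stage, with 1 point per library, a line at the group mean and a bar of 1 SD on either side. QKO EpiLCs stand above every other EpiLC group for *Mdm2* (308 to 323 CPM), *Cdkn1a*, *Ccng1* (608 to 622 CPM) and *Trp53inp1*, and *Pmaip1* separates the stages in every genotype.

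*Trp53* itself fell on differentiation in WT and TKO cells, while the change was −0.02 (95% interval −0.236 to 0.193) in LBRKO and −0.00 (−0.219 to 0.212) in QKO cells. In WT mES cells it ranged from 437 CPM over a median of 478 CPM to 518 CPM, and in WT EpiLCs from 239 over 305 to 399.7 CPM. These groups did not overlap, and the level fell by 0.61 ± 0.08 (SE) on the log2 scale (adjusted p = 2.48e-09). QKO EpiLCs had 402, 434, 471 and 469 CPM, all above the highest WT EpiLC library though by little, and the log2 fold change against WT EpiLCs was 0.50 ± 0.09 (1.42-fold, adjusted p = 9.84e-06). LBRKO EpiLCs had 432, 454.5, 344 and 424 CPM, 1 of them inside the WT range, with a log2 fold change of 0.40 ± 0.09 (adjusted p = 0.00077). TKO EpiLCs had 305, 326, 332 and 316 CPM, in the middle of the WT libraries (log2 fold change 0.03 ± 0.09, 95% interval −0.158 to 0.215, adjusted p = 0.885). In mES cells all 4 TKO libraries (399, 420.3, 382 and 404 CPM) lay below all WT libraries, a change of −0.25 ± 0.09 that only just passed the test (adjusted p = 0.0462) and did not pass with any 1 of the 4 TKO libraries left out (adjusted p 0.0653 to 0.137).

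By mean level, *Trp53* ranked WT mES (478 ± 32.5 CPM, SD, n = 8), QKO mES (445 ± 18.1 CPM, n = 4), QKO EpiLC (444 ± 32.8 CPM, n = 4), LBRKO mES (419.8 ± 5.00 CPM, n = 4), LBRKO EpiLC (414 ± 48.4 CPM, n = 4), TKO mES (401 ± 15.7 CPM, n = 4), TKO EpiLC (319.8 ± 11.8 CPM, n = 4) and WT EpiLC (313.5 ± 62.6 CPM, n = 8). Of these neighbours only TKO mES and TKO EpiLC libraries did not overlap. Per transcript length, *Trp53* was the most abundant of the 10 in WT mES cells, at 118 RPKM (CPM per kilobase of transcript), before *Ccng1* at 79.3 RPKM and *Bax* at 70.5 RPKM, with *Pmaip1* last at 1.12 RPKM. In QKO EpiLCs *Ccng1* came before all others, at 175 RPKM. The WT EpiLC spread of *Trp53* had a structure of its own: WT replicates 1 to 4 held 239 to 287 CPM and replicates 5 to 8 held 323 to 399.7 CPM, with no overlap. The labels give no reason for a difference between these sets of replicate numbers, and its cause was not tested. The QKO EpiLC value of *Trp53* was 0.77 against replicates 1 to 4 and 0.27 against replicates 5 to 8. It passed the test in each. The LBRKO EpiLC value was 0.67 against replicates 1 to 4 and 0.17 against replicates 5 to 8, the set of like depth, where it did not pass (adjusted p = 0.0713). For TKO EpiLCs the direction turned, with 0.30 against replicates 1 to 4 (adjusted p = 0.00224) and −0.20 against replicates 5 to 8 (adjusted p = 0.0385).

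**Figure D2:**
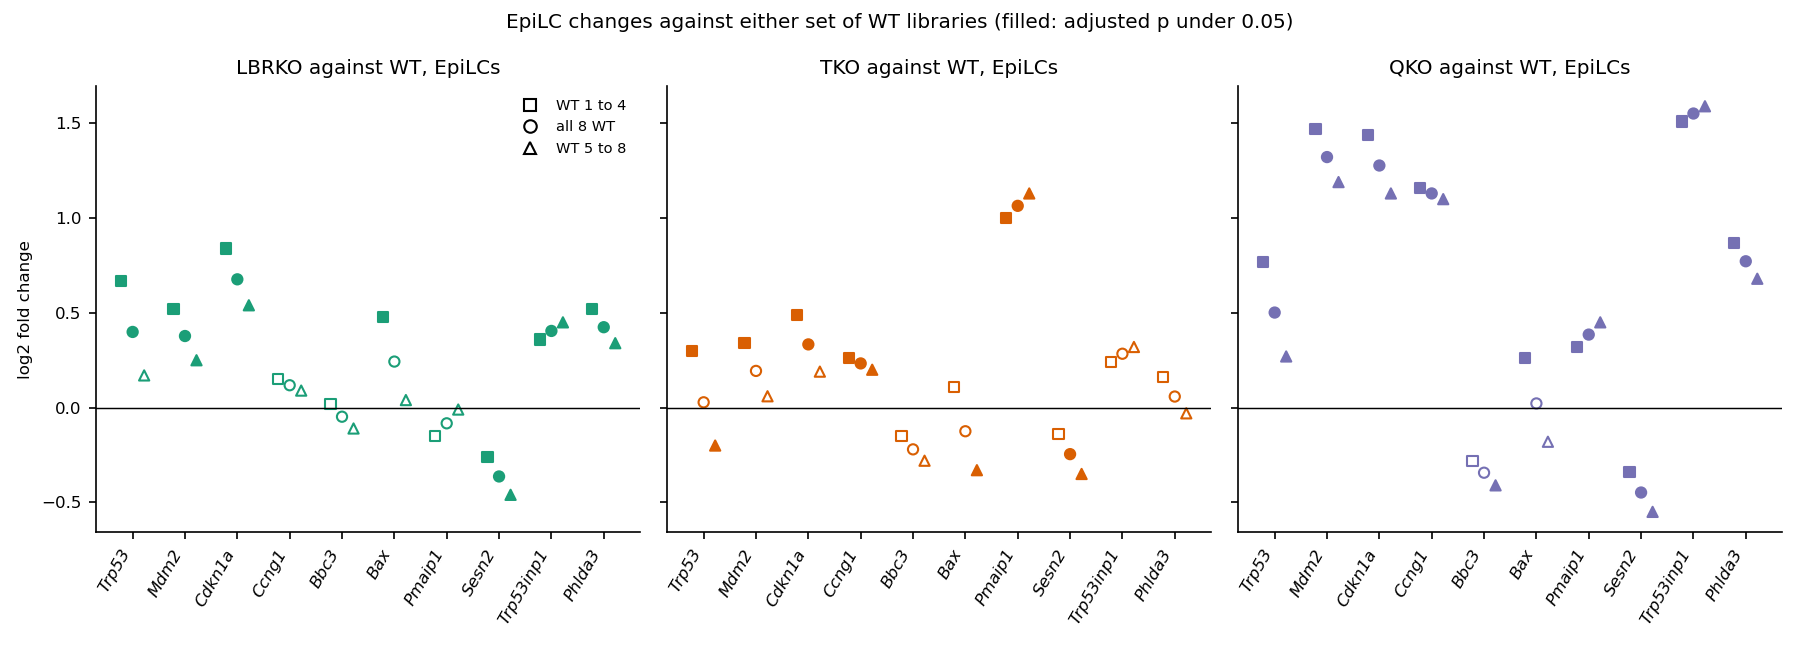
Log2 fold change of each of the 10 genes in LBRKO, TKO and QKO EpiLCs against WT EpiLCs, with WT replicates 1 to 4 alone (squares), all 8 WT libraries (circles) or WT replicates 5 to 8 alone (triangles), filled where adjusted p is under 0.05. *Trp53* shifts from 0.77 to 0.27 in QKO and crosses 0 in TKO (0.30 and −0.20), while *Trp53inp1*, *Mdm2*, *Cdkn1a* and *Ccng1* in QKO stay above 1 with either set.

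*Mdm2*, which encodes the ligase that marks p53 for destruction, was higher in QKO EpiLCs than in any library of the other 7 groups. WT EpiLCs ranged from 110.5 over a median of 122 to 149.5 CPM, and QKO EpiLCs held 316, 307.5, 323 and 316 CPM. The QKO libraries lay close together and far above every WT library, a log2 fold change of 1.32 ± 0.08 (2.5-fold, adjusted p = 2.77e-18). LBRKO EpiLCs, at 155, 159.5, 185 and 156 CPM, also lay above all WT libraries, by 0.38 ± 0.08 (adjusted p = 0.000221). TKO EpiLCs, at 154, 132, 147 and 145 CPM, overlapped WT and did not pass (0.19 ± 0.08, 95% interval 0.035 to 0.353, adjusted p = 0.0944). It did pass against WT replicates 1 to 4 alone (0.34, adjusted p = 0.000618) and, narrowly, with DESeq2 (0.22, adjusted p = 0.0471). In mES cells the order was different: QKO (128, 132, 122 and 119 CPM) lay within the WT range of 103 to 136 CPM (log2 fold change 0.03 ± 0.08, 95% interval −0.131 to 0.189, adjusted p = 0.801). TKO mES cells (99.0, 96.2, 98.9 and 101 CPM) lay below it (−0.31 ± 0.08, adjusted p = 0.00348). Over the 8 groups the mean fell from QKO EpiLC (316 ± 6.18 CPM, n = 4) to LBRKO EpiLC (164 ± 14.2 CPM, n = 4) and TKO EpiLC (144 ± 9.24 CPM, n = 4), and then through WT EpiLC, QKO mES, WT mES and LBRKO mES, each overlapping its neighbour, to TKO mES (98.8 ± 2.10 CPM, n = 4), which overlapped LBRKO mES.

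*Cdkn1a* encodes p21, the inhibitor of cyclin-dependent kinases through which p53 halts the cell cycle. WT cells lowered it on differentiation from 218 to 266 CPM (median 225 CPM) to 46.3 to 83.7 CPM (median 54.5 CPM), a 4.02-fold fall (log2 fold change −2.01 ± 0.08, adjusted p = 3.67e-25). QKO cells began lower, at 176, 184, 168 and 164 CPM in mES cells, below all WT libraries (−0.44 ± 0.09, adjusted p = 0.000169). As EpiLCs they held 136, 133, 152 and 143 CPM, all above the WT EpiLC range (1.28 ± 0.09, 2.42-fold, adjusted p = 1.19e-15). The gene was thus below WT at the naive stage and above it at the primed stage in the same clone. LBRKO EpiLCs (87.3, 90.7, 114 and 79.5 CPM) were above WT by 0.68 ± 0.09 (adjusted p = 1.43e-07), and 1 of them lay inside the WT range. TKO EpiLCs (81.5, 67.2, 73.4 and 71.1 CPM) were above WT by 0.33 ± 0.09 (adjusted p = 0.0095), all within the upper part of the WT range, and the call was lost without TKO EpiLC replicate 1 (0.28, adjusted p = 0.0687) and against WT replicates 5 to 8 alone (0.19, adjusted p = 0.18). The highest WT EpiLC library, replicate 7 at 83.7 CPM, stood apart from the other 7, which reached 59.6 CPM. By mean level the order was LBRKO mES (274 ± 18.6 CPM, n = 4), WT mES (234 ± 17.7 CPM, n = 8), TKO mES (213 ± 7.10 CPM, n = 4), QKO mES (173 ± 8.93 CPM, n = 4), QKO EpiLC (141 ± 8.56 CPM, n = 4), LBRKO EpiLC (93.0 ± 15.0 CPM, n = 4), TKO EpiLC (73.3 ± 6.02 CPM, n = 4) and WT EpiLC (58.1 ± 11.1 CPM, n = 8). The neighbours from TKO mES through QKO mES and QKO EpiLC to LBRKO EpiLC did not overlap, and the others did.

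*Cdkn1a* and *Ccng1* are shown because they held the closest matches to the p53 response element among the 10 genes. Both rose in QKO EpiLCs, and a tie between the matches and the rise was not tested. The element is a pair of decamers, each with a core of 4 bases that begins with C, ends with G and has A or T between, and was searched without a spacer, on both strands, within 3000 bases of the start of the canonical transcript, with intact cores and at most 2 mismatches elsewhere. No other motif was searched. The matches are printed with 5 bases on each side, the matched 20 bases in capitals, from the GRCm39 reference.
Cdkn1a: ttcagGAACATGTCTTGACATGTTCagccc
Ccng1: ccggaACGCAAGCCCGGGCTAGTCTgcgcc
The *Cdkn1a* sequence is chr17:29309897-29309926 on the plus strand, upstream of the gene's annotated span (chr17:29309950-29319701) at −2826 bases from the canonical start, and has 1 mismatch. The *Ccng1* sequence is chr11:40645758-40645787 on the minus strand, in intron 1 of the gene (chr11:40639379-40646138), 366 bases downstream of the canonical start, and also has 1 mismatch. *Pmaip1* had a match with 2 mismatches at −94 bases from its start. In all 3 of the 10 genes (30%) held a match with up to 2 mismatches, beside 575 of the 15477 tested protein-coding genes (3.72%) and 9 of 40 other p53 targets (22.5%), and with up to 1 mismatch 2 of 10 (20%) beside 111 of 15477 (0.717%). *Mdm2*, *Trp53inp1* and *Phlda3*, which also rose in QKO EpiLCs, held none in this window. The matches describe letters and not binding.

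*Ccng1* encodes cyclin G1, a p53 target that acts with a phosphatase on MDM2. It did not differ between the stages in WT, at 252 to 308 CPM in mES cells and 259.8 to 310 CPM in EpiLCs (log2 fold change 0.01 ± 0.05, 95% interval −0.078 to 0.103, adjusted p = 0.82). QKO EpiLCs held 622, 608, 609 and 622 CPM, with no WT library above 310 CPM. This was a log2 fold change of 1.13 ± 0.05 (2.19-fold, adjusted p = 4.15e-21), the smallest error of the 10 genes in this comparison. TKO EpiLCs, at 333, 329, 335.5 and 324 CPM, also lay above all WT libraries, by 0.23 ± 0.05 (adjusted p = 0.00195). LBRKO EpiLCs, at 281, 310.4, 348 and 281 CPM, overlapped WT (0.12 ± 0.06, adjusted p = 0.112). In mES cells none of the 3 mutants passed the test for *Ccng1* against WT.

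*Bbc3* encodes PUMA, *Bax* a pore-forming protein of the outer mitochondrial membrane and *Pmaip1* NOXA, and these 3 carry the p53 signal to cell death. *Bbc3* rose on differentiation in WT from 19.5 to 33.3 CPM (median 26.8 CPM) to 39.4 to 74.2 CPM (median 43.8 CPM), by 0.88 ± 0.12 on the log2 scale (adjusted p = 4.3e-08). QKO EpiLCs held 35.7, 33.2, 44.7 and 36.7 CPM, 3 of them under the lowest WT library, and the difference missed the threshold (−0.34 ± 0.15, 95% interval −0.649 to −0.038, adjusted p = 0.0517). It passed against WT replicates 5 to 8 alone (−0.41, adjusted p = 0.0451) and not against replicates 1 to 4 (−0.28). In mES cells *Bbc3* fell in QKO (19.7, 19.2, 12.5 and 16.6 CPM, −0.61 ± 0.16, adjusted p = 0.00157) and in TKO (20.1, 19.9, 16.7 and 19.0 CPM, −0.46 ± 0.16, adjusted p = 0.0293), with some overlap with WT in each. The TKO call was lost with any 1 of the 4 TKO libraries left out (adjusted p 0.0524 to 0.127), and against WT replicates 5 to 8 alone neither passed (−0.27 with adjusted p = 0.268 in TKO, −0.43 with adjusted p = 0.0529 in QKO).

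*Bax* in QKO EpiLCs (113, 117, 137 and 132 CPM) lay inside the WT range of 98.7 to 161 CPM, with a log2 fold change of 0.02 ± 0.10 (95% interval −0.175 to 0.219, adjusted p = 0.868). This value also depended on the WT libraries: it was 0.26 (adjusted p = 0.00303) against replicates 1 to 4, which held 98.7 to 116 CPM, and −0.18 (adjusted p = 0.0712) against replicates 5 to 8, which held 117 to 161 CPM. LBRKO EpiLCs (154, 147, 123 and 158 CPM) lay within the WT range, and the value missed the threshold (0.24 ± 0.10, 95% interval 0.048 to 0.438, adjusted p = 0.0593). It passed in 9 of the 11 alternatives other than leaving out single libraries, with 0.48 (adjusted p = 3.27e-06) against WT replicates 1 to 4 and 0.42 (adjusted p = 7.7e-06) with the replicate block, and not against WT replicates 5 to 8 (0.04, adjusted p = 0.757). TKO EpiLCs were −0.12 (adjusted p = 0.446) against all WT libraries and −0.33 (adjusted p = 0.00479) against replicates 5 to 8. In mES cells *Bax* fell in TKO (85.9, 81.0, 77.8 and 85.9 CPM against 93.4 to 134 CPM in WT, −0.43 ± 0.10, adjusted p = 0.00125), with no overlap. It also fell in QKO mES cells (96.3, 95.9, 88.5 and 89.8 CPM, −0.26 ± 0.10, adjusted p = 0.0288), overlapping WT, and this call was lost without QKO mES replicate 3 (adjusted p = 0.0835) or replicate 4 (adjusted p = 0.0751) and against WT replicates 1 to 4 alone (−0.14, adjusted p = 0.106).

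*Pmaip1* was almost silent in naive cells and abundant in primed cells of every genotype. WT mES libraries held 2.08 to 3.98 CPM (median 3.00 CPM) and WT EpiLC libraries 180.1 to 222 CPM (median 215 CPM), a 69.1-fold difference (log2 fold change 6.11 ± 0.10, adjusted p = 7.78e-38). TKO EpiLCs held 484, 426, 428.5 and 410.1 CPM, all above every WT library. *Pmaip1* was the only 1 of the 10 genes more than 2-fold higher in TKO EpiLCs (1.06 ± 0.09, 2.09-fold, adjusted p = 6.43e-12). QKO EpiLCs held 279, 279, 263 and 271 CPM, above WT by 0.39 ± 0.09 (adjusted p = 0.000523) and below TKO by 0.68 ± 0.11 on the log2 scale (log2 fold change −0.68, adjusted p = 2.38e-06), with no overlap on either side. LBRKO EpiLCs (189.9, 188, 193 and 218 CPM) lay within WT. In mES cells *Pmaip1* was the only 1 of the 10 that passed in LBRKO (4.39, 3.82, 6.20 and 4.41 CPM, 0.64 ± 0.12, adjusted p = 6.61e-05), at a level where all libraries were under 7 CPM.

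*Sesn2* encodes sestrin 2, an inhibitor of mTORC1 signalling that answers to p53 and to the stress factor ATF4. It was lower than WT in every lamin mutant and, in EpiLCs, in LBRKO. QKO EpiLCs held 146, 149.7, 181 and 169 CPM, all under the lowest WT library (range 194 to 264 CPM, median 212 CPM), a log2 fold change of −0.45 ± 0.07 (adjusted p = 1.37e-06). LBRKO EpiLCs (163, 177, 194 and 151 CPM) also lay under WT (−0.36 ± 0.07, adjusted p = 0.000129). TKO EpiLCs (170.1, 191, 198 and 184 CPM) overlapped WT (−0.25 ± 0.07, adjusted p = 0.0146), and lost the call against WT replicates 1 to 4 alone (−0.14, adjusted p = 0.256) and without TKO EpiLC replicate 1 (−0.21, adjusted p = 0.0909). In mES cells TKO (154, 162, 157 and 172 CPM, −0.47 ± 0.07, adjusted p = 2.17e-06) and QKO (158, 169.8, 149.7 and 148 CPM, −0.52 ± 0.07, adjusted p = 1.32e-07) lay under all WT libraries (209 to 252 CPM).

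*Trp53inp1*, which encodes a nuclear protein that promotes p53 phosphorylation and autophagy, had the largest fold change of the 10 in QKO EpiLCs. WT EpiLCs ranged from 126 over a median of 170.1 to 200.2 CPM, and QKO EpiLCs held 477.5, 491, 514 and 507 CPM. There was no overlap, and the log2 fold change was 1.55 ± 0.10 (2.93-fold, adjusted p = 8.76e-17). It was also the only 1 of the 10 that was higher in QKO mES cells, at 319, 335, 327.5 and 326 CPM against 209 to 279.8 CPM in WT (0.45 ± 0.10, adjusted p = 0.00036). In LBRKO EpiLCs (199, 225, 304 and 169.8 CPM) it passed (0.40 ± 0.10, adjusted p = 0.00236). Without LBRKO EpiLC replicate 3 alone it was 0.22 (adjusted p = 0.1). With the libraries numbered WT 7 and LBRKO 3 left out at both stages, a choice made after seeing the data, it still passed. TKO EpiLCs (172, 215, 214 and 226 CPM) missed the threshold (0.28 ± 0.10, 95% interval 0.077 to 0.492, adjusted p = 0.0557).

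*Phlda3* encodes a small protein that opposes the kinase AKT at the membrane. In EpiLCs it rose in QKO (76.0, 84.2, 98.7 and 82.7 CPM against 42.7 to 54.0 CPM in WT, 0.77 ± 0.07, adjusted p = 1.08e-12). It also rose in LBRKO EpiLCs (71.4, 69.6, 61.8 and 65.7 CPM, 0.42 ± 0.07, adjusted p = 5.76e-06), and neither mutant overlapped WT. In TKO EpiLCs (56.3, 47.2, 55.0 and 49.9 CPM) 2 libraries lay just above the WT range and 2 inside it, and the value did not pass (0.06 ± 0.07, 95% interval −0.084 to 0.201, adjusted p = 0.645). In mES cells it fell in TKO (45.9, 43.6, 41.0 and 42.2 CPM against 55.4 to 64.7 CPM, −0.48 ± 0.07, adjusted p = 1.84e-06), again with no overlap, and was −0.12 ± 0.07 in QKO (adjusted p = 0.184).

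**Figure D3:**
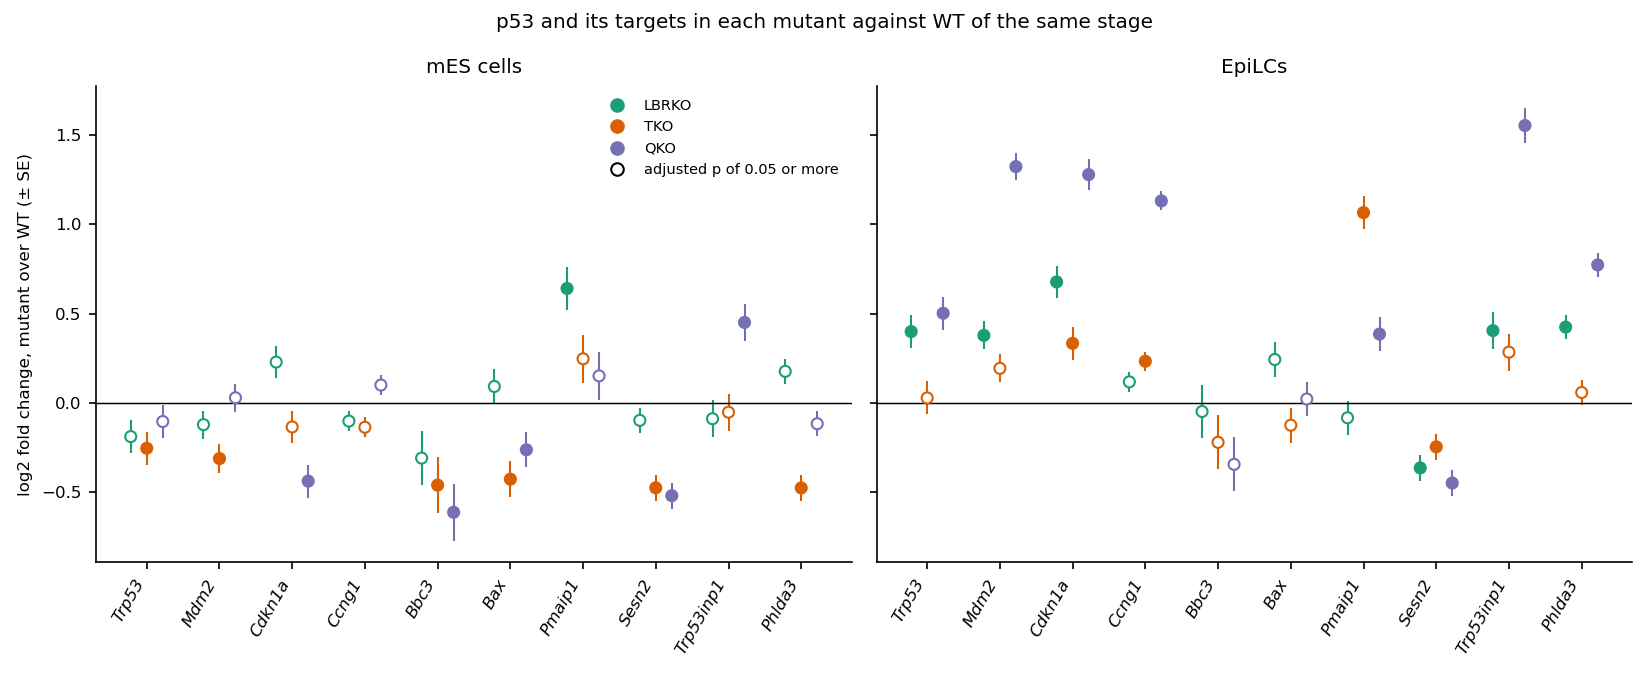
Log2 fold change of each of the 10 genes against WT of the same stage in LBRKO, TKO and QKO cells (points, with SE bars, filled where adjusted p is under 0.05), mES cells on the left and EpiLCs on the right. In QKO EpiLCs *Trp53inp1* (1.55), *Mdm2* (1.32), *Cdkn1a* (1.28) and *Ccng1* (1.13) lie above 1, while in mES cells no value of any mutant does.

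The mutants share their WT libraries, so their counts are set side by side. Of the 10 genes, 5 rose and 1 fell in LBRKO EpiLCs, where 11% of all tested genes rose and 14.2% fell, and the median log2 fold change was 0.31 against 0 for all genes. With WT replicates 5 to 8 alone 4 rose and 1 fell, and in 9 of the 11 alternatives, where *Bax* passed, 6 rose. In TKO EpiLCs 3 rose and 1 fell (4.63% and 10% of all genes), 1 rose more than 2-fold (1.44%), and the median was 0.13 against −0.04. The balance of directions there depended on the WT libraries, with 5 risen and 0 fallen against WT replicates 1 to 4 and 2 risen and 3 fallen against replicates 5 to 8, and DESeq2 gave 5 and 1. In mES cells 1 rose and none fell in LBRKO (12.7% and 11.2% of all genes), with a median of −0.09 against 0.02. In TKO mES cells none rose and 6 fell (8.09% and 13.2%), with a median of −0.28 against −0.01: these 6 were *Trp53*, *Mdm2*, *Bbc3*, *Bax*, *Sesn2* and *Phlda3*. In QKO mES cells 1 rose and 4 fell (21% and 23.5%), with a median of −0.11 against 0.01. The share of genes higher in QKO EpiLCs depended on the scaling of the libraries, which was 44.3% of calls with TMM factors and 58.2% with total counts alone, where the median of all genes moved by 0.16. All 7 rises and the fall of *Sesn2* were called under either scaling.

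Against TKO cells, from which the QKO clone was made, the difference at the primed stage was again larger. In EpiLCs 6 genes rose and 2 fell, where 18.9% of tested genes rose and 23% fell, with a median of 0.59 against −0.01 (TMM factors gave 45.1% of calls higher and total counts 60.1%). *Trp53inp1* (1.27 ± 0.12, adjusted p = 2.55e-11) and *Mdm2* (1.13 ± 0.09, adjusted p = 3.35e-13) rose more than 2-fold, as 9.97% of tested genes did, and *Cdkn1a* (0.94 ± 0.11), *Ccng1* (0.90 ± 0.06), *Phlda3* (0.71 ± 0.08) and *Trp53* (0.47 ± 0.11) by less. For these 6 every QKO EpiLC library lay above every TKO EpiLC library, as for 20.2% of tested genes, and *Pmaip1* was the only 1 of the 10 lower in every QKO library, as 22.1% of tested genes were. *Sesn2* fell by little (−0.20 ± 0.08, adjusted p = 0.0438) with overlap, and did not pass with total counts alone (−0.07, adjusted p = 0.491) or in 5 of the 8 fits that left out a library. Nor did it pass with DESeq2, DESeq2 size factors in edgeR, no filter, a minimum of 1 CPM, multimapped counts or only the groups compared (adjusted p 0.0556 to 0.0935). In mES cells 4 genes rose and 1 fell (9.16% and 11.3% of tested genes): *Trp53inp1* (0.50 ± 0.12), *Phlda3* (0.36 ± 0.08), *Mdm2* (0.34 ± 0.09) and *Ccng1* (0.24 ± 0.06) rose, and *Cdkn1a* (−0.30 ± 0.11, adjusted p = 0.0362) fell. The *Cdkn1a* call was lost in 6 of the 8 fits that left out a TKO or QKO mES library.

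The passage from mES cells to EpiLCs changed several of these genes in every genotype. In WT 2 rose and 4 fell, where 35.8% of tested genes rose and 28.6% fell. *Bbc3* and *Pmaip1* rose, and *Trp53*, *Cdkn1a*, *Trp53inp1* and *Phlda3* fell. *Mdm2* (0.04 ± 0.06), *Ccng1*, *Bax* (0.15 ± 0.08, adjusted p = 0.108) and *Sesn2* (−0.03 ± 0.06) did not pass. With replicate number as a block, which pairs WT mES and EpiLC libraries, *Bax* passed at 0.13 (adjusted p = 0.0268). *Mdm2* depended on which WT libraries entered, at −0.18 (adjusted p = 0.0215) in WT replicates 1 to 4 and 0.26 (adjusted p = 0.00663) in replicates 5 to 8. In LBRKO 5 rose and 2 fell (27.6% and 24.7% of tested genes), in TKO 7 rose and 2 fell (29.4% and 25.5%), and in QKO 7 rose and 1 fell (28.9% and 26.7%). *Bbc3* and *Pmaip1* rose and *Cdkn1a* fell in all 4 genotypes. The fall of *Cdkn1a* was −2.01 ± 0.08 in WT, −1.56 ± 0.11 in LBRKO, −1.54 ± 0.11 in TKO and −0.29 ± 0.11 in QKO, where total counts alone gave −0.21 (adjusted p = 0.0934). *Mdm2* moved from 0.04 in WT to 0.54 ± 0.09 in LBRKO, 0.55 ± 0.09 in TKO and 1.33 ± 0.09 in QKO.

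Whether the passage itself differed from WT was tested as an interaction. In QKO 6 of the 10 genes had a more positive passage than in WT and none a more negative, where 12.9% of tested genes were more positive and 16.9% more negative. 4 differed by more than 2-fold in the positive direction, as 6.94% did, and the median difference was 0.75 against −0.03 over all genes (the share of positive calls was 43.2% with TMM factors and 56.8% with total counts alone). The differences were 1.71 ± 0.13 for *Cdkn1a* (adjusted p = 5.96e-14), 1.29 ± 0.11 for *Mdm2* (adjusted p = 2.08e-12), 1.10 ± 0.15 for *Trp53inp1* (adjusted p = 8.87e-08), 1.03 ± 0.08 for *Ccng1* (adjusted p = 4.08e-14), 0.89 ± 0.10 for *Phlda3* (adjusted p = 1.55e-09) and 0.61 ± 0.13 for *Trp53* (adjusted p = 0.000302). In LBRKO 5 were more positive (6.91% of tested genes) and *Pmaip1* more negative (−0.72 ± 0.15; 8.57%), and in TKO 5 were more positive and none more negative (4.45% and 3.98%). *Mdm2*, *Cdkn1a* and *Ccng1* were in the positive set of all 3 mutants, with *Mdm2* at 0.50 ± 0.11 in LBRKO and 0.50 ± 0.11 in TKO. These 3 interactions share the WT libraries. Against WT replicates 5 to 8 alone, *Mdm2* did not pass in LBRKO (0.28, adjusted p = 0.107) or TKO (0.29, adjusted p = 0.107), nor did *Cdkn1a* (0.36, adjusted p = 0.0918, and 0.38, adjusted p = 0.0801). In LBRKO *Ccng1* (0.16, adjusted p = 0.292) and *Trp53inp1* (0.48, adjusted p = 0.067) were lost there too, leaving *Trp53* (0.43) and *Pmaip1* (−0.77), and *Ccng1* in LBRKO also missed the threshold in 4 other settings (adjusted p 0.0608 to 0.0908). Without LBRKO EpiLC replicate 3, *Trp53inp1* (0.33, adjusted p = 0.0794) and *Ccng1* (0.17, adjusted p = 0.102) did not pass in LBRKO. With the replicate block, which pairs the WT libraries, *Sesn2* in LBRKO (−0.26, adjusted p = 0.0182), *Trp53* (0.30, adjusted p = 0.0271) and *Bax* (0.32, adjusted p = 0.0178) in TKO and *Bax* in QKO (0.30, adjusted p = 0.00955) passed as well.

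**Figure D4:**
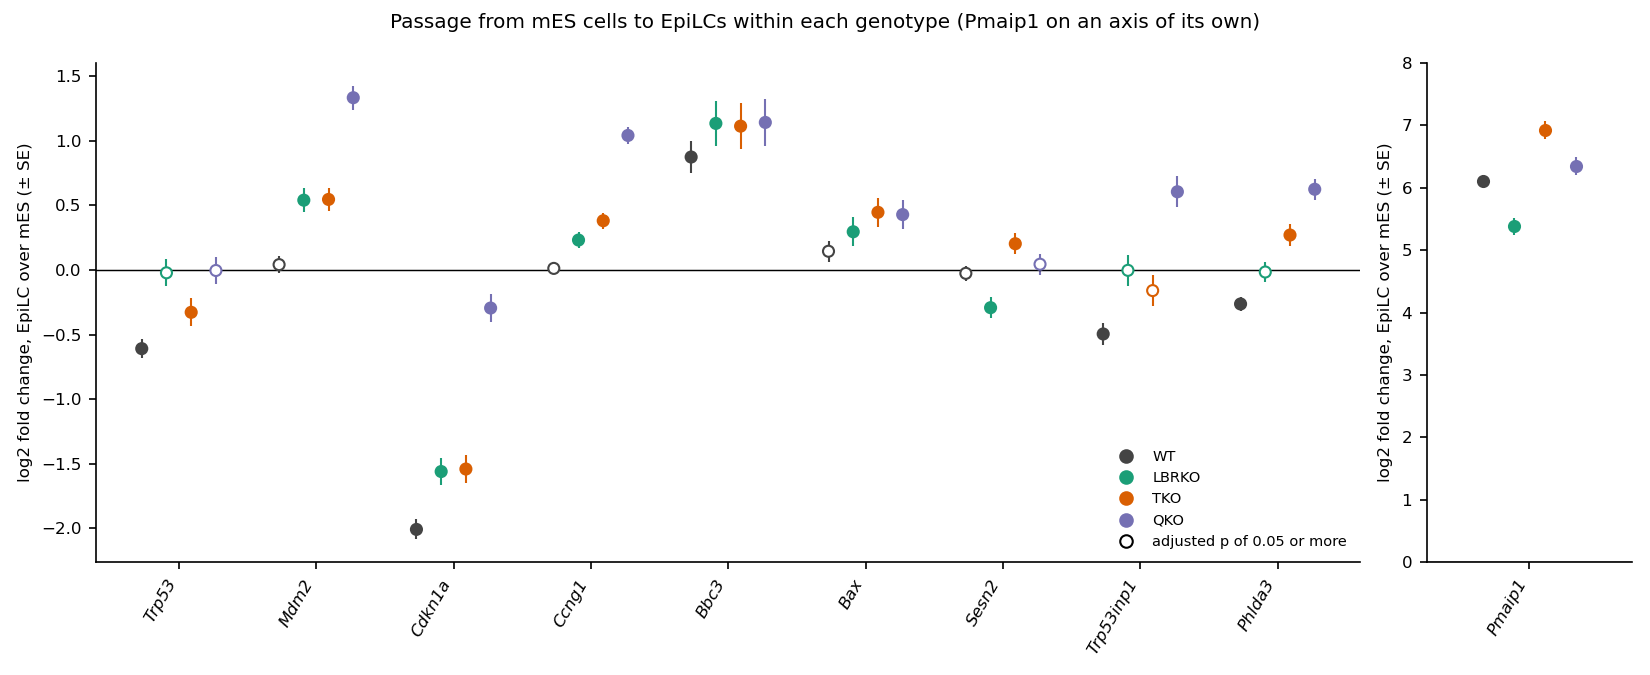
Log2 fold change of each of the 10 genes from mES cells to EpiLCs within WT, LBRKO, TKO and QKO cells (points, with SE bars, filled where adjusted p is under 0.05), with *Pmaip1* on an axis of its own. *Cdkn1a* runs from −2.01 in WT to −0.29 in QKO, *Mdm2* from 0.04 to 1.33, and *Pmaip1* lies between 5.39 and 6.93 in all genotypes.

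A further contrast asked whether the QKO value exceeded the sum of the LBRKO and TKO values on the log2 scale. In EpiLCs 4 genes exceeded it and 1 fell short, where 10.7% and 13.6% of tested genes did (the share of calls above the sum was 43.9% with TMM factors and 58.5% with total counts). *Trp53inp1* (0.86 ± 0.16, adjusted p = 5.9e-05), *Ccng1* (0.78 ± 0.08, adjusted p = 2.28e-09), *Mdm2* (0.75 ± 0.12, adjusted p = 6.82e-06) and *Phlda3* (0.29 ± 0.11, adjusted p = 0.0432) exceeded it, the last of them at the threshold, since it did not pass without QKO EpiLC replicate 3 (0.21, adjusted p = 0.164). *Pmaip1* fell short (−0.60 ± 0.14, adjusted p = 0.00157), TKO alone being higher than QKO. *Cdkn1a* (0.27 ± 0.14, 95% interval −0.019 to 0.553, adjusted p = 0.176) and *Trp53* (0.07 ± 0.14, adjusted p = 0.751) did not pass, though against WT replicates 5 to 8 alone both did (0.40, adjusted p = 0.0351, and 0.30, adjusted p = 0.026). In that fit, where LBRKO is set against WT libraries of like depth and those of TKO and QKO cancel out, 6 genes exceeded the sum and 1 fell short. In mES cells 3 exceeded the sum (*Trp53inp1* 0.59, *Mdm2* 0.46 and *Ccng1* 0.34) and 2 fell short (*Pmaip1* −0.74 and *Cdkn1a* −0.53), where 7.28% and 10.3% of tested genes did.

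Other p53 targets, a list of 42 genes that excludes the 10, moved in the same comparisons as follows. In QKO EpiLCs against WT 24 rose, 9 of them more than 2-fold, 9 fell and 9 did not pass (24.3% of all tested genes rose and 30.5% fell), with a median log2 fold change of 0.31 against −0.01 for all genes. *Perp*, a desmosomal protein gene that p53 uses in cell death, had the largest rise (1.61 ± 0.10, adjusted p = 1.27e-17), followed, among those averaging 5 CPM or more in either group, by the phosphatase gene *Ptp4a3* (1.39 ± 0.07), the noncoding *Pvt1* (1.38 ± 0.14) and the TNF receptor family gene *Eda2r* (1.26 ± 0.09). In the QKO passage against the WT passage 25 were more positive, 13 of them by more than 2-fold, and 5 more negative (12.9% and 16.9% of tested genes), with a median of 0.60, led by *Trp53i11* (2.74 ± 0.20). In mES cells the list lay the other way: 3 rose and 21 fell in TKO (median −0.24; 8.09% and 13.2% of tested genes), with *Plk2* at −0.91 ± 0.17. In QKO mES cells 6 rose and 20 fell (median −0.28; 21% and 23.5%), with *Trp53i11* at −1.57 ± 0.16. In LBRKO EpiLCs 13 rose and 5 fell (median 0.12), where 11% and 14.2% of tested genes did. In TKO EpiLCs 1 rose and 5 fell (median 0.06), near the 4.63% and 10% of tested genes, and in LBRKO mES cells 10 rose and 8 fell (median 0.06; 12.7% and 11.2%).

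Among 20 genes of the p53 family and its control, 8 rose and 9 fell in QKO EpiLCs (median −0.11), beside 24.3% and 30.5% of tested genes. *Trp73*, the p53 relative that binds the same element, rose most, from 14.2 ± 1.48 CPM (SD, n = 8) in WT EpiLCs to 61.0 ± 9.20 CPM (n = 4) in QKO EpiLCs (2.11 ± 0.09, 4.31-fold, adjusted p = 1.35e-22), with the lowest QKO library at 51.5 CPM and the highest WT library at 16.6 CPM. It was 21.0 ± 1.05 CPM in TKO EpiLCs and 18.4 ± 2.03 CPM in LBRKO EpiLCs. *Mdm4*, the MDM2 partner that masks the p53 activation domain, was 169 ± 12.1 CPM in QKO EpiLCs and 101 ± 12.2 CPM in WT EpiLCs (0.75 ± 0.09, adjusted p = 6.02e-09), while the damage kinases *Prkdc* (−0.76 ± 0.07) and *Chek2* (−0.71 ± 0.07) fell.

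The remaining lists are counted in QKO EpiLCs against WT, where 24.3% of tested genes rose and 30.5% fell. Of 12 tested Bcl2 family genes, which set the threshold for mitochondrial death, 1 rose and 8 fell (median −0.51). *Hrk* (−1.87 ± 0.17) and *Bmf* (−0.99 ± 0.11) were lowest among those averaging 5 CPM or more in either group. Of 14 genes of the ATF4 stress response, which *Sesn2* also answers to, none rose and 14 fell (median −1.32). *Vldlr* (−2.86 ± 0.12), *Chac1* (−2.56 ± 0.12) and *Trib3* (−2.33 ± 0.09) were lowest. That list also fell without a rise in TKO mES cells (8 of 14), QKO mES cells (12) and TKO EpiLCs (11). Of all tested genes 13.2%, 23.5% and 10% fell in these comparisons. In LBRKO EpiLCs 10 fell and 1 rose, where 14.2% of tested genes fell and 11% rose. Of 22 genes that drive the cell cycle 2 rose and 12 fell (median −0.18), with *Ccne2* highest (1.40 ± 0.08) and *Bub1* lowest (−0.65 ± 0.06). Of 5 other inhibitors of cyclin-dependent kinases 2 rose and 2 fell, with *Cdkn1c* at −0.74 ± 0.16 and *Cdkn1b* at −0.41 ± 0.06. Of 6 paralogs of the 10 genes 2 rose and 3 fell: *Phlda1* rose (1.20 ± 0.21) and *Phlda2* fell (−1.89 ± 0.18), while *Trp53inp2* (−0.62 ± 0.08) and *Ccng2* (−0.51 ± 0.21) fell where *Trp53inp1* and *Ccng1* rose.

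**Figure D5:**
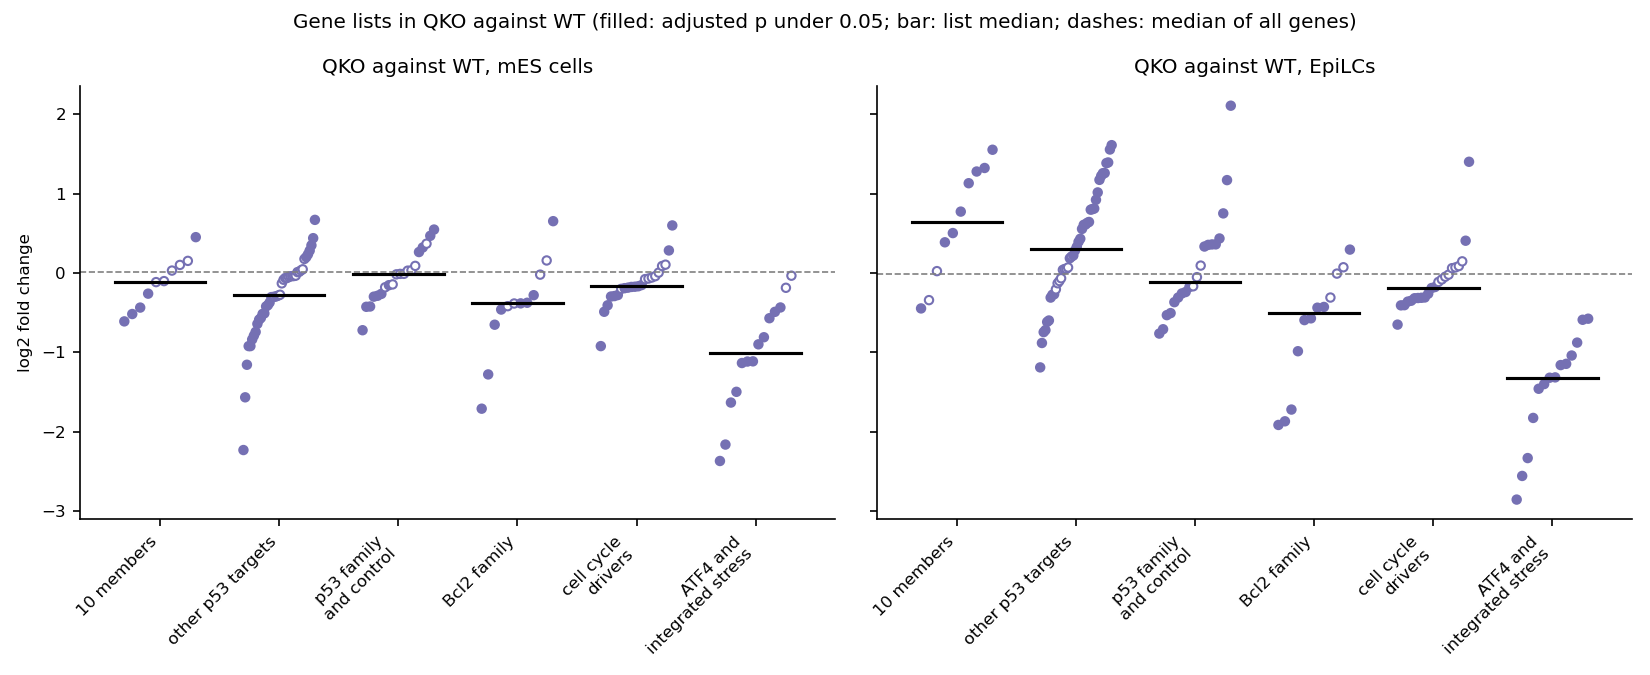
Log2 fold change in QKO cells against WT for every tested gene of the 10 and of 5 related lists, mES cells on the left and EpiLCs on the right (1 point per gene, filled where adjusted p is under 0.05, a bar at the list median, dashes at the median of all genes). In EpiLCs the medians run from 0.64 for the 10 genes and 0.31 for other p53 targets to −0.51 for the Bcl2 family and −1.32 for ATF4 genes.

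The genes whose levels followed those of the 3 central members most closely over all 40 libraries were found among 10366 genes with a mean of at least 5 CPM, by Pearson's r of log2 CPM. For *Mdm2* these were *Ccng1* (r = 0.955), *Zfp750* (0.934) and *Trp73* (0.913). A member of the set thus came first. For *Cdkn1a* they were *Abhd2* (0.963), *Emp1* (0.962) and *Eif2ak2* (0.961). For *Trp53* they were *Dhx16* (0.915), *Cyb5b* (0.908) and *Ak1* (0.895). These are descriptions over libraries that share stage and genotype. The counts of *Trp53*, *Cdkn1a*, *Bax* and *Sesn2* can include reads from genes that overlap them, of which the largest, *Dino*, antisense to *Cdkn1a*, held at most 4.89% of the *Cdkn1a* counts. Chromosomes that carry the 10 genes had median log2 fold changes between −0.08 and 0.11 in QKO EpiLCs.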

How the data were processed

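Total RNA-seq libraries (Illumina stranded, ribosomal RNA removed, paired-end) were trimmed by the authors with cutadapt 2.5, aligned with STAR 2.7.10a to GRCm39 and counted per GENCODE M30 gene with featureCounts 1.6.4. Its strand setting is not given in the sources read here. The deposited values used were these raw counts. A deposited table of counts that includes multimapped reads served as an alternative. Here, 40 libraries were fitted in 1 model with edgeR 4.0.16 (R 4.3.3): filterByExpr, TMM factors, quasi-likelihood tests, Benjamini-Hochberg adjustment over 23399 genes, calls at adjusted p under 0.05. CPM and RPKM are relative to TMM-scaled totals and merged exon length. ± on a log2 fold change is the SE. Simulated counts for QKO against WT EpiLCs (22315 genes) held 50 genes for each change. All genes raised or lowered by 1 on the log2 scale were recovered, with 90% of those raised and 82% of those lowered by 0.5. There 3.6% of calls were false. Few genes were changed in the simulation and its WT libraries had no separate sets, while 54.8% of tested genes were called in the data. The rate of false calls therefore holds for the simulation alone. DESeq2 1.42.0 was an alternative. No libraries were duplicates. Of the 116 pairs of same-numbered libraries in different groups, 46 deviated together (correlation over 0.1), and only between WT mES and WT EpiLC did all 8 pairs do so (0.103 to 0.61), so numbers were taken as pairing those groups alone. LBRKO libraries set against the WT libraries numbered 4 higher, which had like depth, correlated at −0.251 to 0.677, over 0.1 in 5 of 8 pairs. The members and gene lists were chosen with earlier results of these data known. Beside the 10 members, up to 4 genes per list were named, taking the called genes of largest change that averaged 5 CPM or more in either group.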

Additional observations from a re-analysis of the deposited data

Results flagged for a closer look

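Within groups, 6 of the 80 sets of libraries examined (10 genes in 8 groups) held a library far from the rest by Dixon's ratio, which flags about 1 in 20 groups by chance. LBRKO EpiLC replicate 3 was far above its group for *Mdm2* (185.2 CPM) and *Bbc3* (59.38 CPM), WT EpiLC replicate 7 for *Cdkn1a* (83.72 CPM) and *Bbc3* (74.24 CPM), LBRKO mES replicate 3 for *Sesn2* (233.7 CPM) and LBRKO EpiLC replicate 4 for *Pmaip1* (218.1 CPM). WT EpiLC replicate 7 and LBRKO EpiLC replicate 3 each held the highest level in their group of the same 6 genes, *Mdm2*, *Cdkn1a*, *Ccng1*, *Bbc3*, *Sesn2* and *Trp53inp1*. The share of all tested genes for which this held was not counted. Over genes with a mean of at least 5 CPM, the deviations of these libraries from their group means correlated at 0.621. Their shared deviation was thus not confined to the 10 genes.

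Of the 30 tests of a mutant's passage from mES cells to EpiLCs against that of WT, 17 passed. These tests share the WT libraries. Of all tested genes, 6.91% were more positive and 8.57% more negative in LBRKO, 4.45% and 3.98% in TKO, and 12.9% and 16.9% in QKO. In QKO the differences that passed were 1.71 for *Cdkn1a*, 1.29 for *Mdm2*, 1.10 for *Trp53inp1*, 1.03 for *Ccng1*, 0.89 for *Phlda3* and 0.61 for *Trp53*. In LBRKO they were 0.59 for *Trp53*, 0.50 for *Mdm2*, 0.49 for *Trp53inp1*, 0.45 for *Cdkn1a*, 0.22 for *Ccng1* and −0.72 for *Pmaip1*. In TKO they were 0.82 for *Pmaip1*, 0.53 for *Phlda3*, 0.50 for *Mdm2*, 0.47 for *Cdkn1a* and 0.37 for *Ccng1*. *Pmaip1* thus differed from WT in opposite directions in LBRKO and TKO. Against WT replicates 5 to 8 alone, the count of genes that passed went from 6 to 2 in LBRKO and from 5 to 3 in TKO. Against WT replicates 1 to 4 alone it was 7 in each.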

How the results depend on the processing

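Over 17 comparisons the 10 genes gave 170 values. Direction and call were unchanged in 166 of them with DESeq2, 167 with DESeq2 size factors in edgeR, 160 with total counts, 159 with no filter, 162 with a minimum of 1 CPM, 163 with multimapped counts, 158 with only the groups compared in the fit, 150 with WT replicates 1 to 4 alone and 151 with WT replicates 5 to 8 alone. Of 1120 values with 1 mutant library left out, 1061 were unchanged and 46 lost the call. Directions turned for a called value only with part of the WT libraries: *Mdm2* in the WT passage was 0.04 and became −0.18 with WT replicates 1 to 4 (adjusted p = 0.0215), and *Trp53* in TKO EpiLCs was 0.03 and became −0.20 with WT replicates 5 to 8 (adjusted p = 0.0385). Leaving out the libraries numbered WT 7 and LBRKO 3 at both stages, chosen after seeing the data, left 160 unchanged.

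The count of genes changed in LBRKO mES cells was 1 and became 6 with WT replicates 1 to 4, 2 with WT replicates 5 to 8, 2 with a minimum of 1 CPM, 2 with multimapped counts, 2 with total counts, 3 with only the groups compared, 3 without WT 7 and LBRKO 3, and 1 to 3 with 1 library left out. The count for the LBRKO passage against WT went from 6 to 2, and for the TKO passage from 5 to 3, with WT replicates 5 to 8. The cause of these shifts was not tested. The share of all tested genes called in each refit was not counted, so a shift of the 10 genes cannot be told from a general one. Other p53 targets changed in TKO mES cells went from 24 to 15 without TKO mES replicate 4. The replicate number as a block gave 152 unchanged values, 5 genes in LBRKO mES cells and 10 in QKO EpiLCs (8 without it). No mutant library carries the numbers 5 to 8, so the block sets mutants mainly against WT replicates 1 to 4, LBRKO included, although LBRKO matched WT replicates 5 to 8 in depth, and 12 of 40 libraries correlated best with their own number.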
